A study of Mus musculus with 8 samples.

Results

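Anp32b, Zfp12, Fosb and Rora are 4 genes of nuclear regulators among the 155 distinct features of a deposited comparison between Paupar knockdown and control neural stem cells. They were chosen by gene name, with their values known, as a histone chaperone family gene, a zinc finger gene, an AP-1 gene and a nuclear receptor gene, and all 4 names were found. RNA was sequenced from 8 samples of neural stem cells that had been dissociated from the mouse subventricular zone, the germinal niche along the lateral ventricles, and cultured with EGF and FGF-2. The 4 samples labelled shPaupar were nucleofected with a short hairpin RNA against Paupar, a long non-coding RNA gene beside Pax6, and the other 4 are labelled control. The labels state neither what the control cells received, nor the strain or age of the mice, nor whether the 4 samples in each group are separate animals or cultures. The authors' deposited table gives 1 level per group, so no spread between samples can be shown and no test between samples was possible. Its adjusted p-values are the authors', from a test that the sources used here do not name.

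KAP1 (gene symbol Trim28), which the study's title names with Paupar, is a chromatin co-repressor. It is brought to DNA by zinc finger proteins that carry a KRAB domain, and it recruits the histone methyltransferase SETDB1, heterochromatin protein 1 and histone deacetylases. KRAB zinc finger genes themselves often lie in clusters of related copies. Zfp12 is a zinc finger gene, and the other members act elsewhere in the nucleus: ANP32 proteins bind and escort histones, FOSB pairs with JUN proteins to form the transcription factor AP-1, and RORA binds DNA as a monomer and activates clock and metabolic genes.

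Both directions were found among the members. Anp32b and Zfp12 were higher and Fosb and Rora lower in shPaupar cells, in a table where 54 features were higher (34.8%) and 101 lower (65.2%). In the authors' deposited table all 4 members have an adjusted p below 0.05, as do 155 of its 155 features (100%), so the count of members says nothing about them. Absolute log2 ratios of at least 1 were found in 1 of the 4 (Zfp12), against 34.1% of the features above 0 in both groups, and 2 of the 4 (Anp32b and Zfp12) have an adjusted p below 0.01, against 60.6% of all features. The adjusted p-values of the 114 rows used that match whole annotated genes imply 29506 tests by the Benjamini-Hochberg rule, and the largest rank they imply is 142, so that at least 0.481% of those tests passed. Rows that match no whole gene were left out of this calculation, and whether they belong to the same order is not known. In the implied order the members stood at ranks 1 (Anp32b), 9 (Zfp12), 121 (Rora) and 134 (Fosb). By adjusted p among all 155 features Anp32b was at place 1, Zfp12 at 10, Rora at 129 and Fosb at 145. The pair that rose lies near the top of the authors' list and the pair that fell near its end.

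**Figure D1:**
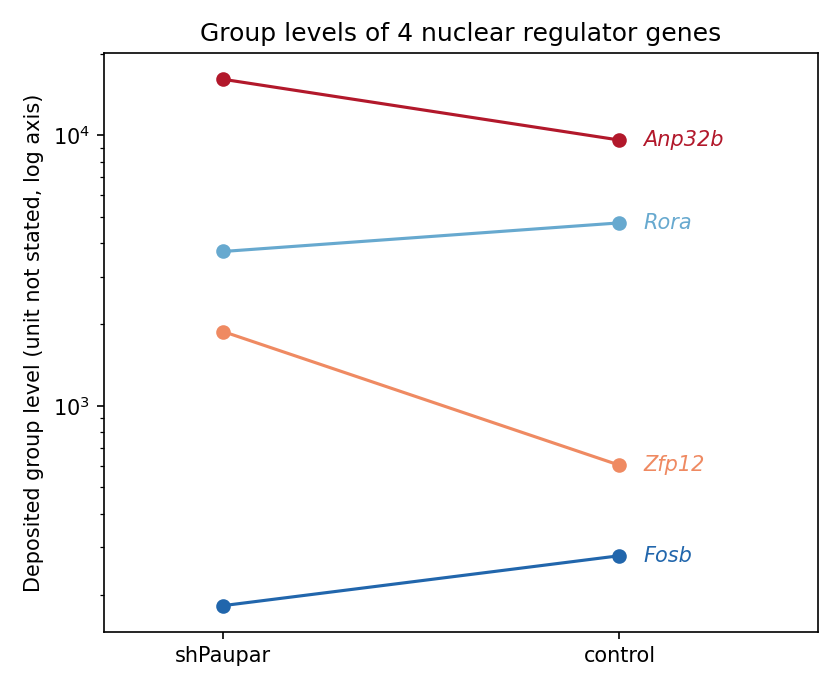
Deposited group level (log axis, unit not stated) of each member in shPaupar and control cells, with 1 point per group and a line for each gene. The lines of Anp32b and Zfp12 are higher at shPaupar and those of Fosb and Rora are higher at control. Heights of different genes cannot be taken as comparable, since it is not stated whether the levels are scaled for length.

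Zfp12 had the largest change of the 4. The authors' deposited table gives it a level of 1882 in shPaupar cells, against 604 in control cells, which is a ratio of 3.12 and a log2 ratio of 1.64. Its adjusted p there is 1.24e-05. Among the 132 features above 0 in both groups, 30 had a larger absolute log2 ratio, and among the 42 of them that were higher Zfp12 ranked 18. The listed locus (chromosome 5, 143235163 to 143248834, plus strand) equals the gene span in GENCODE M21, the annotation of the mouse assembly GRCm38. No other annotated gene overlaps it, and of its 5 transcripts 3 are protein-coding and 0 are annotated as retained introns. In its transcripts 1.39% of all 50-base stretches also occur in transcripts of other genes.

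The bases before the Zfp12 start site are shown because transcripts of the member that rose most begin there, and they can be set against those of Anp32b and Fosb further on. The stretch covers 250 bases at chr5:143234913-143235162 (plus strand, GRCm38.p6, sequence from RefSeq), and capitals mark a GC box.
Zfp12: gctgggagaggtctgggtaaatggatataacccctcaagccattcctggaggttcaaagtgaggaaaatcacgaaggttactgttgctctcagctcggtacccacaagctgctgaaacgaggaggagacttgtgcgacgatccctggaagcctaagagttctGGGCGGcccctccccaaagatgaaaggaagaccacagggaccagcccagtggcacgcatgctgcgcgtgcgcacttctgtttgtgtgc
This stretch has a GC content of 55.6% and 10 CpG dinucleotides, the same as the medians of 21263 such stretches of protein-coding genes (55.6% and 10). The GC box GGGCGG, 88 to 83 bases before the start, occurs on either strand in 42.6% of them.

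The protein of Zfp12 is of the kind through which KAP1 acts. A translation of its longest annotated coding sequence has 686 residues with 15 C2H2 zinc fingers and a stretch that matches a KRAB pattern. Zinc fingers were counted as a pair of cysteines 2 to 4 residues apart, 12 residues, and a pair of histidines 3 to 5 residues apart. Of the 8 Zfp genes on a list of the KAP1 silencing complex and its partners, 8 had at least 3 fingers and 6 matched the KRAB pattern, so a missing match does not show that a KRAB domain is absent. Among the 142 protein-coding genes in the authors' deposited table, 2 had at least 3 fingers (1.41%), against 644 of 21901 protein-coding genes of the annotation (2.94%). Both of these also matched the KRAB pattern (1.41%), against 221 of all protein-coding genes (1.01%).

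The other KRAB zinc finger gene was Gm4724, a predicted gene on chromosome 2 (175422300 to 175435807) with 13 fingers in 498 residues. The authors' deposited table has it at 179 in shPaupar cells and lists it at 0 in control cells, with an adjusted p of 0.000319, so no fold is given. Both KRAB zinc finger genes in the table were thus higher in shPaupar cells. For Gm4724 this rests on uncertain counting, because 99.8% of the 50-base stretches in its transcripts also occur in transcripts of other genes, 61 in number, and 93.9% occur in Gm14308 alone. Another feature with a zinc finger symbol, Zfp469, has a level of 38.7 in shPaupar cells and is listed at 0 in control cells of the authors' deposited table, with an adjusted p of 0.0250. Its identifier is annotated as a long intergenic non-coding RNA and its locus (chromosome 8, 122269569 to 122272646) is not the whole gene. No fingers were counted for it, so it was not read as a measurement of a zinc finger coding sequence.

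Zfp12 lies among other zinc finger genes. Of the 21 annotated protein-coding entries within 500 kb, with Fam220a entered under 2 identifiers, 3 had at least 3 fingers, and 2 of those matched the KRAB pattern. Among all protein-coding genes 2.94% have at least 3 fingers and 1.01% have these and a KRAB match. Whether such genes are denser here was not tested. Zfp316, with 14 fingers and a KRAB match, ends 0.863 kb beyond the end of Zfp12 on the other strand, so the pair run towards each other. Rbak, a KRAB protein named for its binding to the retinoblastoma protein, has 14 fingers and lies 54.4 kb away on the other strand, and Zfp853 with 5 fingers lies 38.2 kb away. The authors' deposited table holds none of the 21 neighbours, and their fold changes are unknown. The nearest feature in the table was a part of Tecpr1, 0.947 Mb away. By the authors' deposited table it went the other way, at 144 in shPaupar cells against 1083 in control cells, with an adjusted p of 0.0214.

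**Figure D2:**
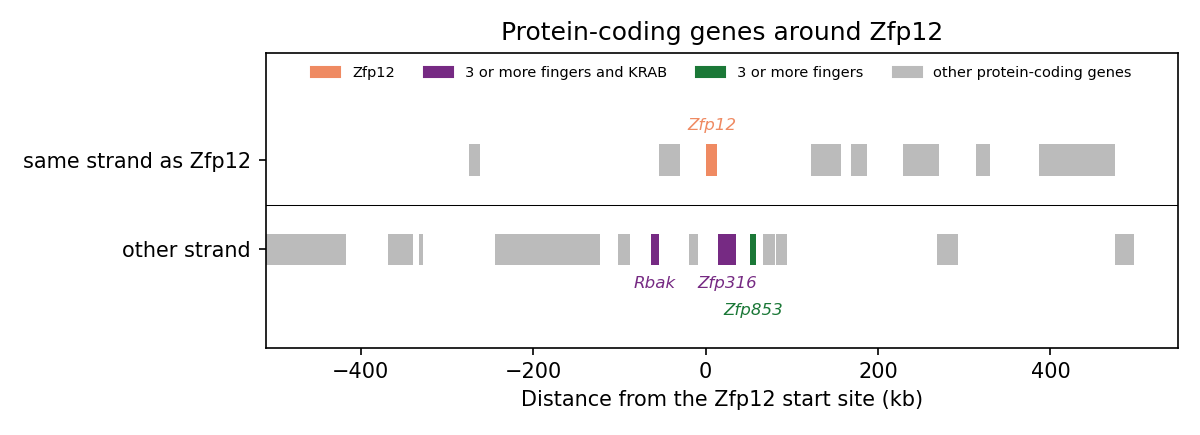
Protein-coding genes within 500 kb of Zfp12, by distance from its start site in kb, with genes on the same strand above and those on the other strand below. Bars show gene spans; Zfp12 is orange, the 2 neighbours with at least 3 fingers and a KRAB match (Rbak and Zfp316) are purple, Zfp853 is green, and the other genes are grey.

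Lists of related genes had few or no members in the table. Where about 0.481% of tests passed, a short list would mostly have none, so a count of 0 is no result about a list. The share of imprinted genes given below, 2 of 29, is larger than this. It was not tested, and the lists were chosen with earlier results known. Of 30 genes of the KAP1 silencing complex and its known zinc finger partners, which include Trim28, Setdb1, Cbx5, Zfp57 and Zfp809, 0 were in the authors' deposited table. Of 29 imprinted genes, some of which KAP1 is known to keep silent on 1 allele, 2 were present and moved in opposite directions. In the authors' deposited table the growth factor gene Igf2 has a level of 4.73 in shPaupar cells against 35.6 in control cells (log2 ratio -2.91, adjusted p 0.00175). The adaptor gene Grb10 has 4963 in shPaupar cells against 3781 in control cells of the authors' deposited table (log2 ratio 0.39, adjusted p 0.00690). For genes outside the rows no fold change is known, and a count of 0 is no sign that they kept their levels. Binding of KAP1 or Paupar was not measured in this table, and whether the rise of Zfp12 depends on KAP1 was not tested.

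Anp32b rose less than Zfp12 but had the smallest adjusted p of all features. The authors' deposited table gives it a level of 16105 in shPaupar cells, against 9605 in control cells, with an adjusted p of 7.86e-12. This is a ratio of 1.68 (log2 ratio 0.75) and a difference of 6499 on the deposited scale. Centred on the median log2 ratio of the 132 features above 0 in both groups (-0.45), a list selected for change, its value was 1.20. Among the 132 features above 0 in both groups, 54 had a larger absolute log2 ratio, so its place at the head of the list comes with a change of middling size. It also had the highest levels of the 4 members as deposited. The same held per length, a measure that assumes the levels are not already scaled for length, which is not stated. Divided by the length of its annotated exons, 1.72 kb, its level was 9385 per kb in shPaupar and 5598 per kb in control cells, and the control value was the third highest of 103 whole-gene features above 0 in both groups. The gene (chromosome 4, 46450902 to 46472657, plus strand) has 1 annotated transcript, which is protein-coding, and overlaps no other gene. In that transcript 12.1% of the 50-base stretches also occur in the processed pseudogene Anp32b-ps1, so the authors' counting could have moved some reads between the 2 loci.

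The 250 bases before the Anp32b start site (chr4:46450676-46450925, plus strand, GRCm38.p6, sequence from RefSeq) show how this start differs from that of Zfp12. The start site in RefSeq lies downstream of the GENCODE gene start given above, so the last bases of the stretch, with a pair of GC boxes, lie inside the GENCODE gene. Capitals mark a CCAAT box read on the other strand, an E-box and GC boxes on either strand.
Anp32b: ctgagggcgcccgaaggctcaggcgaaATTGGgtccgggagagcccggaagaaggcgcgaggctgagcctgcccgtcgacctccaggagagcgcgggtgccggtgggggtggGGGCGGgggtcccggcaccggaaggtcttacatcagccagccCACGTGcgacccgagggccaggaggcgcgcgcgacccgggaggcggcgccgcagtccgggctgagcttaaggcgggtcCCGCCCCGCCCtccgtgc
Its GC content is 75.2% with 31 CpG dinucleotides, and 4.65% of the 21263 stretches have a higher GC content. The CCAAT box (letters CCAAT) lies 223 to 219 bases and the E-box (CACGTG) 96 to 91 bases before the start. These occur in 35.4% and 6.63% of all such stretches, and the 3 GC boxes include a pair that overlap by 1 base. Apart from the GC box, no motif searched for was found in both Anp32b and Zfp12.

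The list around Anp32b was built with that gene in it. Of 33 genes of the ANP32 family and of histone chaperones, among them its relatives Anp32a and Anp32e, the chaperone gene Set and the nucleophosmin gene Npm1, the other 32 were not among the rows, and beside the 0.481% of tests that passed this count says nothing about the list. No level of a related gene could therefore be set beside that of Anp32b.

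Fosb had the lowest levels of the 4 members, both as deposited and per length, and the adjusted p nearest to the threshold. The authors' deposited table gives it a level of 183 in shPaupar cells, against 280 in control cells, with an adjusted p of 0.0435. This is a ratio of 0.654, a log2 ratio of -0.61, which became -0.16 when centred on the median of -0.45 of a list selected for change. Per length of annotated exons (6.24 kb), if the levels are not already scaled for length, Fosb stood at 29.3 per kb in shPaupar and 44.8 per kb in control cells. Its control value ranked 83 of 103. Of the 132 features above 0 in both groups, 71 had a larger absolute log2 ratio. The gene (chromosome 7, 19302696 to 19310051, minus strand) overlaps no other gene and shares 0 of its 50-base stretches with other transcripts. Of its 7 annotated transcripts 6 are protein-coding and 1 is a retained intron, so the gene level does not tell full-length FOSB from its shorter splice form.

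The stretch before the Fosb start site (chr7:19310046-19310295, minus strand, GRCm38.p6, sequence from RefSeq) is shown because immediate early genes are switched on through elements close to the start. Here too the RefSeq start lies a few bases inside the GENCODE gene. Capitals mark GC boxes and TGACG, the core of the cyclic AMP response element (CRE) bound by CREB and ATF proteins.
Fosb: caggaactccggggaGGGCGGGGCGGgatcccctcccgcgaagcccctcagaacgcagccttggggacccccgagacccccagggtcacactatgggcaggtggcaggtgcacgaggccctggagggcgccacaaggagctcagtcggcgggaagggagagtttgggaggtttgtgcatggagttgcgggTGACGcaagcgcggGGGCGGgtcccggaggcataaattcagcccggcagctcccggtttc
The CRE core lies 60 to 56 bases before the start and occurs in 20.2% of all such stretches. The full CRE TGACGTCA (1.92% of all stretches), of which the core is a part, was not found in this stretch. Nor was the AP-1 site TGACTCA (4.06%), the CArG box bound by serum response factor (1.39%) or the TATA box TATAAA (11.6%). Bases farther from the start were not searched, so whether Fosb has such elements there is not known. Of the 3 GC boxes, the pair farther from the start overlap by 1 base. GC content was 68.8% with 19 CpG dinucleotides.

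Related genes of the immediate early response could not be compared with Fosb. Of 20 genes of AP-1 and its bZIP partners, Fosb was the 1 present, so Fos, Fosl1, Fosl2, Jun, Junb and Jund were not among the rows. Of 27 other immediate early genes, including Egr1, Arc and Nr4a1, 0 were present. With about 0.481% of tests passing, such counts say nothing about these genes. The AP-1 site TGACTCA, read on both strands, was in 3.45% of 145 start-site stretches belonging to features of the table and in 4.06% of all. The nearest feature on the chromosome was Relb, a gene of an NF-kappaB subunit 296 kb away, which the authors' deposited table lists at 0 in shPaupar cells and at 46.4 in control cells (adjusted p 0.0195). Of the 52 protein-coding genes within 500 kb of Fosb, Relb was the 1 in the table.

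Rora showed the smallest change of the 4. The authors' deposited table gives it a level of 3722 in shPaupar cells, against 4747 in control cells, with an adjusted p of 0.0343. The ratio was 0.784, a log2 ratio of -0.35, and 127 of the 132 features above 0 in both groups had a larger absolute log2 ratio. These 132 features, a list selected for change, had a median log2 ratio of -0.45. When ratios were centred on that median the value of Rora turned to 0.10, which follows from subtracting a negative median and is no sign of a rise. Per length of annotated exons (13.1 kb), if the levels are not already scaled for length, Rora stood at 285 per kb in shPaupar and 363 per kb in control cells. The control value ranked 41 of 103.

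The Rora gene is long, 734 kb on chromosome 9 (68653786 to 69388246, plus strand), and the antisense gene Gm15511 lies within it over 15.4 kb. Use of strand and of intron reads in the authors' counting is not given, so whether reads of Gm15511 entered the level of Rora is not known. Of the 50-base stretches in Rora transcripts, 0.260% occur in Gm15511, so the exons of the 2 genes share little sequence. Removal of ribosomal RNA without poly(A) selection keeps unspliced RNA, and how far intron reads entered the level of so long a gene is not known. Of the 6 annotated transcripts of Rora 2 are protein-coding, and only the start site at the first base of the gene was searched for motifs. In the 250 bases before it (GC content 61.2%, 26 CpG dinucleotides) none of the motifs named above was found. Neither was AGGTCA, the core bound by many nuclear receptors, which 12.8% of all such stretches hold. This core, which is part of the site of RORA itself, was in 10.3% of the stretches of features in the table.

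Relatives and clock partners of Rora could not be compared with it. Of 48 nuclear receptor genes Rora was the 1 in the authors' deposited table, and Rorb, Nr1d1 and Nr1d2 were not. Of 24 clock genes it was again the 1 present, so no value for its known target Bmal1, or for the period and cryptochrome genes, can be set beside it. Of 43 transcription factor genes of subventricular stem cells and neurogenesis, including Pax6 and Sox2, 0 were among the rows. Beside the 0.481% of tests that passed, none of these counts is a result about its list.

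**Figure D3:**
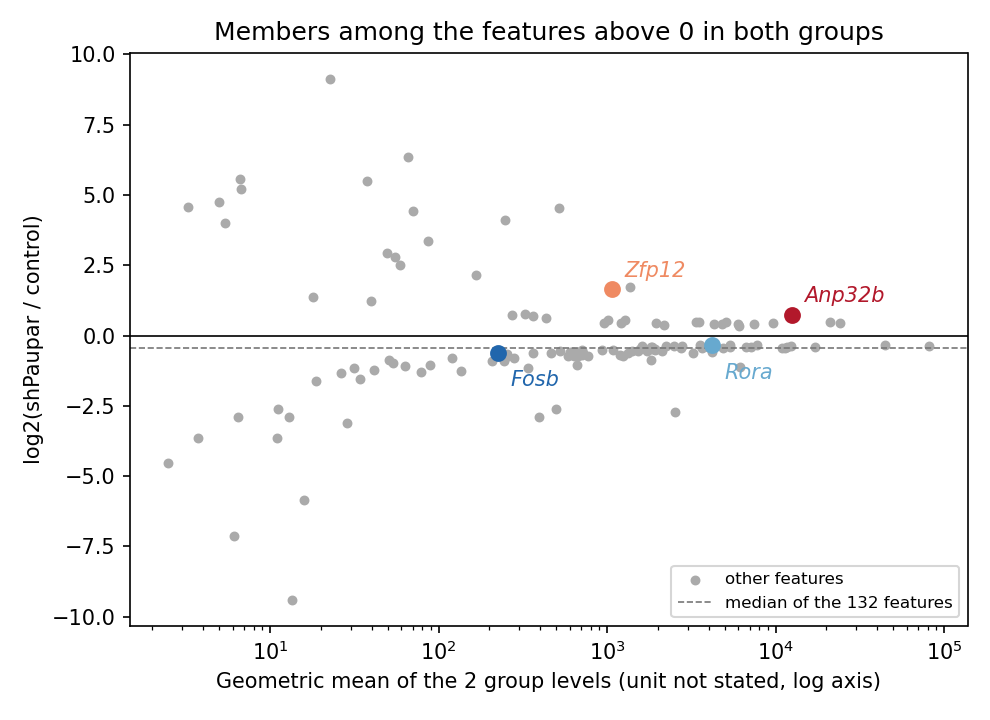
Log2 ratio of shPaupar over control against the geometric mean of the 2 group levels (log axis, unit not stated) for the 132 features above 0 in both groups, with members coloured, the rest grey and the median of -0.45 dashed. Zfp12 (1.64) and Anp32b (0.75) lie above most features of like level, while Fosb (-0.61) and Rora (-0.35) lie in the dense band of lower features.

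The p-values allow an approximate error for each fold change. Taken as two-sided Wald p-values, an assumption that cannot be checked here, those of the authors' deposited table imply a standard error of the log2 fold change of 0.0911 for Anp32b, 0.278 for Zfp12, 0.164 for Fosb and 0.0922 for Rora. The matching 95% intervals were 0.57 to 0.92 for Anp32b, 1.09 to 2.19 for Zfp12, -0.93 to -0.29 for Fosb and -0.53 to -0.17 for Rora. On that assumption Zfp12 was the member with the widest interval, and the intervals of Fosb and Rora overlapped. Log2 ratios computed here differed from the deposited fold changes by at most 0.000735 for the members, so either may be read for the other.

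Features nearest to each member in deposited levels were found by the distance between their pairs of group levels on the log2 scale, over 2 group values. Levels were not divided by length for this, so nearness may in part follow transcript length. Nearest to Zfp12 was Arl5b, a gene of an ARF-like GTPase, at 2500 in shPaupar cells against 753 in control cells (log2 ratio 1.73, distance 0.519), followed at 0.787 by the galectin gene Lgals9 (0.54). For Anp32b the nearest was Vamp3, a vesicle fusion gene, at 11118 in shPaupar and 8260 in control cells (0.43, distance 0.577), and the next, the amino acid transporter gene Slc38a3, went the other way (-0.39, distance 0.803). Fosb and Rora had closer company. The phosphodiesterase gene Pde8a lay 0.0825 from Fosb, at 188 in shPaupar and 294 in control cells (-0.65), and the myelin glycoprotein gene Omg 0.246 away (-0.76). Around Rora were the calcium sensor gene Kcnip3 at 3427 in shPaupar and 4569 in control cells (-0.41, distance 0.131) and the serine protease gene Htra1 (-0.60, distance 0.176). All these levels are from the authors' deposited table, and likeness in 2 group levels says nothing of shared control.

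**Figure D4:**
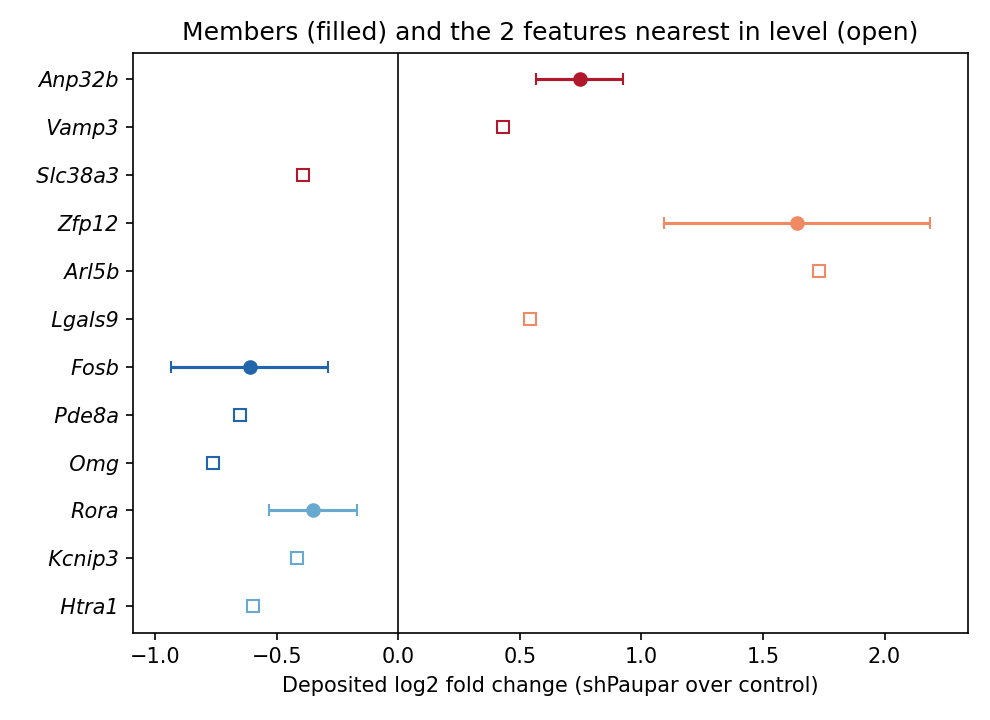
Deposited log2 fold change (shPaupar over control) of each member (filled circle, with the 95% interval that a Wald test would imply) and of the 2 features nearest to it in group levels (open squares, no interval drawn). Arl5b lies beside Zfp12, Slc38a3 lies on the other side of 0 from Anp32b, and the features near Fosb and Rora lie on the same side as these.

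Cell type markers present in the table were lower, as were Fosb and Rora and 65.2% of all features. With most features lower, a shared direction of so few markers does not set them apart from the table. Whether markers were more frequent in the table than the 0.481% of tests that passed was not tested. Of 15 neural stem cell and astroglial markers, 4 were in the authors' deposited table (Slc1a2, Aldoc, Aqp4 and Slc7a10), all lower. Their summed level was 46688 in shPaupar and 60089 in control cells. Most of each sum came from Slc1a2, at 39308 in shPaupar and 50039 in control cells. The locus listed for Aqp4 is not the whole gene. Of 11 neuroblast and neuronal markers only Dcx was present, at 152 in shPaupar and 286 in control cells. None of the 38 listed markers of oligodendrocyte lineage, microglia, endothelial and mural or ependymal cells was among the rows, so their levels are unknown. The myelin glycoprotein gene Omg, named above and lower in shPaupar cells, is not on these lists. Nes, Gfap and Sox2 were not among the rows either, and the labelled cell type could not be checked on them. In bulk RNA, fewer cells of a type and less RNA per cell cannot be told apart, and the part of cell composition in the changes of the members was not tested. Paupar is not among the rows either, and its knockdown could not be checked here.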

How the data were processed

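Total RNA of 8 samples, 4 shPaupar and 4 control, was depleted of ribosomal RNA with probes, primed with random hexamers and sequenced as paired reads, per the labels' protocols. Tools named in the submitters' processing notes are HISAT2, HISAT, TopHat2, StringTie and CASAVA, with no role stated. The counter, the test, strand use, versions and the build were not given in the sources used here. Of the 156 rows in the authors' deposited table, 1 was shifted by 1 column and 1 repeats another. The 2 level columns hold a signal of unstated normalization as the authors deposited it, 1 value per group, so depth is unknown and no interval or test between samples was possible. Fold changes were deposited as log2 values, and p-values were deposited both raw and adjusted. Levels below 1e-10 were treated as listed at 0.

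Members, gene lists (14, with 6 lists of cell type markers) and the rule for named genes were chosen with earlier results of these data known. The rule took the members, all rows on a list or with a zinc finger symbol, and the 2 nearest rows by level for each member. Genes with zinc fingers were also found by protein translation. The nearest rows on each chromosome were named after their values were seen. Log2 ratios were taken from the 2 levels without a pseudocount. The number of tests behind the adjusted p-values was the one that made most ranks whole, 60 of 114 rows that equal whole genes. This search was tested on 20 simulated tables and recovered the number within 5 tests in 20. In those tables every row belonged to the same order of tests, and a narrower range of numbers was searched. Rows outside such an order, which these data may hold, were not simulated. Loci equal to GENCODE M21 (GRCm38) gene spans were the basis for coordinates and exon lengths. Zinc fingers and KRAB matches were counted in translations of GENCODE coding sequences, and motifs in RefSeq start-site stretches (GRCm38.p6), with all 4 members matched. Alternatives were pseudocounts of 1 and 10, the deposited fold change, centring on the median, thresholds of 0.01 and of 1 on the absolute log2 ratio, and a level of at least 100. Calculations used Python 3.11.15, pandas 2.3.3, NumPy 2.4.6, SciPy 1.17.1, Biopython 1.88 and matplotlib 3.10.9.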

Additional observations from a re-analysis of the deposited data

How the results depend on the processing

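Pseudocounts of 1 and 10 and the deposited log2 fold change moved the log2 ratio of each member by less than the standard error that a Wald test would imply. The values at a pseudocount of 10 were 1.62 for Zfp12 and -0.59 for Fosb. Centring on the median log2 ratio of the 132 features above 0 in both groups (-0.45) gave 1.20 for Anp32b, 2.09 for Zfp12 and -0.16 for Fosb, and turned Rora to 0.10. The change follows from subtracting a negative median of a list selected for change. Of the 4 members, 2 (Anp32b and Zfp12) have an adjusted p below 0.01, as do 60.6% of all features, and 1 (Zfp12) has an absolute log2 ratio of at least 1, as do 34.1% of features above 0 in both groups. Keeping features with a level of at least 100 left the percentage of features with a larger absolute log2 ratio within 1.5 times for each member. It went from 40.9% to 28.4% for Anp32b and from 22.7% to 15.6% for Zfp12. For Fosb it went from 53.8% to 44.0% and for Rora from 96.2% to 95.4%. Ranks moved further, from 55 of 132 to 32 of 109 for Anp32b and from 31 to 18 for Zfp12. No paired analysis was possible because the table gives 1 level per group and no values per sample, and for the same reason no replicate could be left out. Depth per sample is unknown.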
